A study of Rattus norvegicus with 9 samples.

Results

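The 8 genes described here encode surface receptors, secreted proteins and matrix proteins used as markers of oligodendrocyte precursor cells (OPCs): Pdgfra, Cspg4, Ptprz1, Pcdh15, C1ql1, Vcan, Tnr and Matn4. They were taken by symbol from a rat table of 32623 gene IDs, in which each had 1 entry, and all 8 were among the 15321 genes with enough reads to be tested. Bulk RNA was sequenced from 9 libraries of OPC primary cultures from wild-type rat brain, all on day 5 in differentiation medium. Of these, 3 were basal, 3 had received 1 µM bavisant and 3 had received 10 µM bavisant, which blocks histamine H3 receptors. The 3 libraries of a group carry the numbers P11, P13 and P14 in their titles, with no word on the meaning of P. No label says that they are different cultures or animals, and the p-values then measure only how these samples vary, which may be technical.

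OPCs divide and migrate in response to platelet-derived growth factor, which they sense through the receptor encoded by Pdgfra, and they carry the proteoglycan NG2 on their surface. They also lay down a matrix of chondroitin sulfate proteoglycans, such as versican, which is cross-linked by tenascins. As precursors differentiate into myelinating oligodendrocytes, most of these genes are switched off, so their level in a culture depends both on how many cells are still precursors and on how much RNA each makes. In bulk samples, fewer cells of a type and less RNA per cell cannot be told apart.

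The libraries held 23.9 to 43.1 M estimated reads (M, 1000000), with 23.9 to 33.5 M in the basal group, 34.8 to 43.1 M at 1 µM and 38.0 to 39.3 M at 10 µM. The P number separated the libraries far more than the dose did, and same-numbered libraries deviated together, so each dose comparison is given both without and with the P number as a term of the fit (an additive block). The P11 libraries held more RNA of fibroblast and meningeal markers, with a summed level of 669 to 936 TPM (a level per transcript length, scaled to the same total in each library), against 222 to 462 in P13 and 71.8 to 125 in P14. Markers of myelin and mature oligodendrocytes dominated every library, with a summed level of 34101 to 52206 TPM, and the 8 precursor genes together reached 957.8 to 1152 TPM. Markers of astrocytes, microglia and neurons were present in every library, with summed levels of at least 1558, 967 and 624 TPM. The sequences and values below are ordered by what the proteins do, from surface proteins to secreted and matrix proteins.

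The upstream sequences of 4 of these genes are shown because Pdgfra and Cspg4 on one side, and Vcan and Tnr on the other, differed between libraries in opposite directions. They are the 250 bases before the annotated start, 5′ to 3′ on the gene's strand, from RefSeq on build GRCr8, and 5 of the 8 genes matched an entry of that table. Capitals mark each CANNTG (an E-box, the letters bound by bHLH factors such as Olig2) and each ACAANG (a SOX-type motif), read on both strands. The windows lie at chr14:33408517-33408766 (minus strand) for Pdgfra, chr8:66160692-66160941 (plus) for Cspg4, chr2:22595956-22596205 (minus) for Vcan and chr13:74624776-74625025 (plus) for Tnr.
Pdgfra: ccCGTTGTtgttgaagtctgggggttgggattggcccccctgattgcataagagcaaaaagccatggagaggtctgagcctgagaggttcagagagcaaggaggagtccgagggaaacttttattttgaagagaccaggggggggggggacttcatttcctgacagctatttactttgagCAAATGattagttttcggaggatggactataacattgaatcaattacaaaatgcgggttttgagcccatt
Cspg4: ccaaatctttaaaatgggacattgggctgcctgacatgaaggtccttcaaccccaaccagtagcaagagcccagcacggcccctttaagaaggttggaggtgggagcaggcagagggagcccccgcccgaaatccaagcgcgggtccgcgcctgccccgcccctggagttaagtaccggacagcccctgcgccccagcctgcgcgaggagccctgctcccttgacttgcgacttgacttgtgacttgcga
Vcan: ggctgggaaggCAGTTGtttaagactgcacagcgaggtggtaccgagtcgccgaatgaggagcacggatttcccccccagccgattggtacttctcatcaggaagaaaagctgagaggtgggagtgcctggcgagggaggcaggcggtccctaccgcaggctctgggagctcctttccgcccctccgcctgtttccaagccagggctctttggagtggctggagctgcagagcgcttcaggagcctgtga
Tnr: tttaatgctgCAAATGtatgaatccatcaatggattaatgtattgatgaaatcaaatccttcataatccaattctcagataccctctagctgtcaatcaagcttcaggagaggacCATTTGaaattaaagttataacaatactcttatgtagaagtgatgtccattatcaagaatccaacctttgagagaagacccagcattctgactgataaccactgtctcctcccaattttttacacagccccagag
Pdgfra held 1 E-box and 1 SOX-type motif, Vcan held 1 E-box in the window shown, Tnr held 2 E-boxes, and Cspg4 held neither motif. Vcan has a second annotated start, whose window at chr2:22595858-22596107 (minus) overlaps the one shown and held 0 E-boxes, 0 SOX-type motifs and 60.0% G and C. Among the windows of 27457 genes, 65.2% held an E-box and 36.4% a SOX-type motif. A GGGCGG (GC box, both strands) was found 2 times in Cspg4 and 1 time in Vcan, in 32.4% of all windows, and it did not occur in the Pdgfra or Tnr window. The share of G and C was 62.0% in Cspg4 and 61.6% in Vcan, against 47.2% in Pdgfra and 36.8% in Tnr, with a median of 52.0% over all windows. These matches are descriptions of the letters only.

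Per transcript length, Ptprz1 was the most abundant of the 8 genes and Pcdh15 the least. The mean level over the 9 libraries was 309 ± 54.7 TPM (SD, n = 9) for Ptprz1, 190 ± 73.6 for Pdgfra, 190 ± 26.8 for C1ql1, 148 ± 37.2 for Tnr and 135 ± 34.1 for Vcan. Matn4 stood at 41.9 ± 7.65 TPM, Cspg4 at 27.4 ± 6.97 and Pcdh15 at 20.8 ± 3.82. The upper 5 genes were thus separated from the lower 3: every library's Vcan value lay above every Matn4 value, the only neighbouring pair whose ranges did not overlap. Within single libraries the order was steadier than the ranges show, since Ptprz1 exceeded Pdgfra, C1ql1 exceeded Tnr, Matn4 exceeded Cspg4 and Cspg4 exceeded Pcdh15 in 9 of 9 libraries. Pdgfra and C1ql1 had like means, but Pdgfra was higher in 6 of 9 libraries, those of P13 and P14. In P11 it was lower, at 91.9 to 96.1 TPM against 216 to 225 TPM for C1ql1. Tnr was above Vcan in 7 of 9 libraries.

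**Figure D1:**
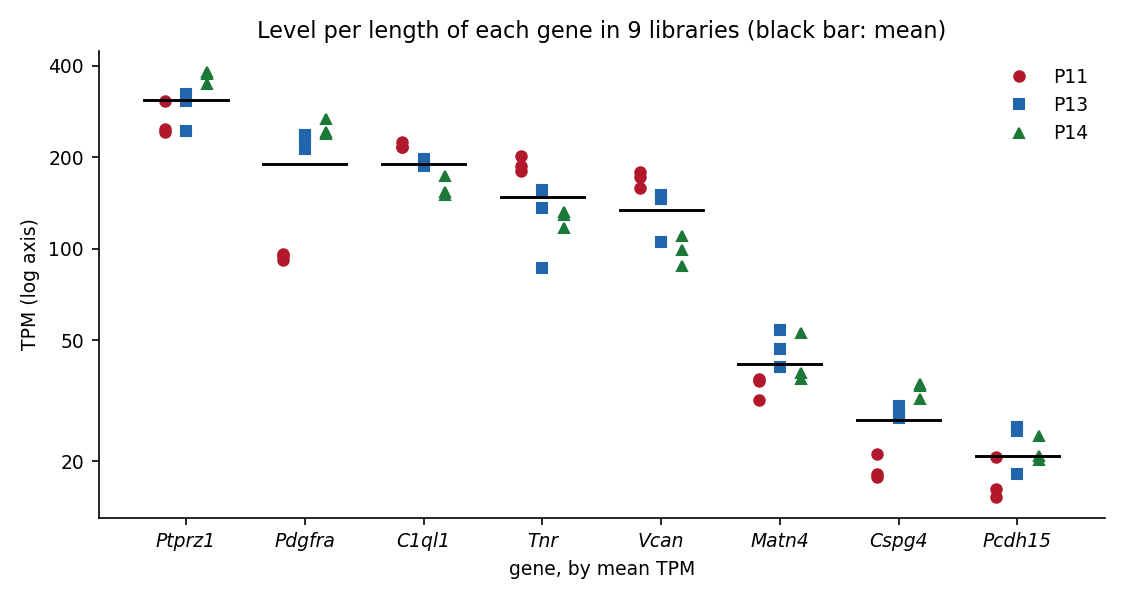
Level per transcript length (TPM, log axis) of each gene in the 9 libraries, coloured by P number, with the mean as a black bar. Pdgfra is split, with the P11 libraries at 91.9 to 96.1 TPM and the other libraries at 213 TPM or more.

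At 10 µM bavisant none of the 8 genes passed the test against basal. By CPM (reads scaled to library size), Pdgfra, Cspg4 and C1ql1 were a little higher in each of the 3 P numbers. Ptprz1, Vcan and Tnr were a little lower in each. These differences were at most 0.56 on the log2 scale, while Pcdh15 and Matn4 went both ways. By TPM, Cspg4 and C1ql1 went both ways as well. Tested with edgeR's quasi-likelihood test and Benjamini-Hochberg adjustment over all 15321 genes, 0 of 8 genes were called without the P number, where 0% of all genes were called, and 0 of 8 with it, where 3.96% were. At an unadjusted p under 0.05, 0 of 8 genes and 808 of all genes passed without the P number, and 3 of 8 and 3436 with it. DESeq2 with the P number in the fit called 2 of the 8, Pdgfra and Cspg4, and 964 of all genes. No gene's basal and 10 µM libraries were without overlap, where 9.33% of tested genes had none.

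Pdgfra (ENSRNOG00000002244), the receptor for the mitogen PDGF-A, had 361, 798 and 900 CPM (reads scaled to library size, not to length) in the basal libraries P11, P13 and P14. It had 375, 877 and 909 CPM at 1 µM and 378, 958 and 1039 CPM at 10 µM. By CPM, the 10 µM library was the highest of its P number each time. However, P11 stood far below the other libraries at every dose, so the groups overlapped. The log2 fold change at 10 µM against basal was 0.21 ± 0.50 (SE; adjusted p = 1.000) without the P number and 0.18 ± 0.05 (95% interval 0.06 to 0.30; adjusted p = 0.0926) with it. Within P11, P13 and P14 it was 0.06, 0.26 and 0.21. DESeq2 with the P number in the fit gave the same 0.18 with an adjusted p of 0.0440, which is under the threshold of 0.05.

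Cspg4 (ENSRNOG00000017208) encodes NG2, a membrane-spanning chondroitin sulfate proteoglycan that is a standard surface marker of OPCs. Its basal levels were 86.9, 130 and 148 CPM, its levels at 1 µM were 89.4, 141 and 163 CPM, and its levels at 10 µM were 107, 140 and 174 CPM. By CPM, each 10 µM library exceeded the basal library of its number, with log2 ratios of 0.30, 0.11 and 0.23, and the groups overlapped. By TPM, the P13 library was slightly lower at 10 µM (27.7) than at basal (28.1). The fold change at 10 µM was 0.21 ± 0.28 on the log2 scale (adjusted p = 1.000) without the P number and 0.22 ± 0.05 (95% interval 0.09 to 0.34; adjusted p = 0.0676) with it. DESeq2 with the P number gave 0.22 and an adjusted p of 0.0316.

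Ptprz1 (ENSRNOG00000006030) encodes a receptor-type tyrosine phosphatase that carries chondroitin sulfate and binds the growth factor pleiotrophin. It had 1435, 1381 and 1720 CPM in basal libraries, 1142, 1453 and 1666 CPM at 1 µM, and 1155, 1194 and 1609.8 CPM at 10 µM. The 10 µM values were below basal in every P number, by log2 ratios of -0.31, -0.21 and -0.10, and the ranges overlapped through the high P14 libraries. With the P number in the fit the change was -0.21 ± 0.08 (95% interval -0.38 to -0.03; adjusted p = 0.157), and without it -0.20 ± 0.18 (adjusted p = 1.000).

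Pcdh15 (ENSRNOG00000000606) encodes protocadherin-15, a cadherin-family adhesion protein best known from the tip links of inner ear hair cells. Its levels were 44.2, 71.6 and 55.0 CPM in basal libraries, 47.1, 69.3 and 65.3 CPM at 1 µM and 61.1, 53.8 and 58.3 CPM at 10 µM. The 10 µM library was the highest of P11 and the lowest of P13, and the spread between the 3 libraries narrowed from an SD of 13.8 CPM at basal to 3.68 CPM at 10 µM, a difference in spread that was not tested. The log2 ratios within P11, P13 and P14 were 0.47, -0.41 and 0.08, and the fitted change was 0.05 ± 0.15 (95% interval -0.29 to 0.39; adjusted p = 0.872) with the P number.

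C1ql1 (ENSRNOG00000002963), a secreted C1q-like protein, had 118, 96.5 and 77.4 CPM in basal libraries. At 1 µM it had 116, 94.7 and 89.4 CPM, and at 10 µM 122, 111 and 78.9 CPM. The order P11 above P13 above P14 was the same in each group, and the groups overlapped almost wholly. The change at 10 µM was 0.10 ± 0.07 (95% interval -0.07 to 0.26; adjusted p = 0.470) with the P number in the fit.

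Vcan (ENSRNOG00000029212) encodes versican, a large hyaluronan-binding proteoglycan of the lectican family. Basal libraries had 729, 584 and 384 CPM, those at 1 µM 640.1, 591 and 415 CPM, and those at 10 µM 708, 418 and 344 CPM. The 10 µM library was below basal in each P number, mostly in P13, where the log2 ratio was -0.48 against -0.04 in P11 and -0.16 in P14. The fitted change was -0.22 ± 0.11 (95% interval -0.46 to 0.02; adjusted p = 0.258) with the P number.

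Tnr (ENSRNOG00000002468) encodes tenascin-R, a matrix glycoprotein that binds lecticans. It had 760.5, 500.5 and 462 CPM in basal libraries, 673, 562 and 467 CPM at 1 µM and 719, 338 and 433 CPM at 10 µM. As for Vcan, the P13 library at 10 µM stood low, with a log2 ratio to basal of -0.56, against -0.08 in P11 and -0.09 in P14. The fitted change was -0.23 ± 0.13 (95% interval -0.53 to 0.06; adjusted p = 0.325) with the P number.

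Matn4 (ENSRNOG00000014021) encodes matrilin-4, an adaptor protein of the extracellular matrix. Its basal levels were 39.5, 63.6 and 45.8 CPM, with 46.3, 55.2 and 62.8 CPM at 1 µM and 48.5, 53.3 and 46.0 CPM at 10 µM. P13 was highest in the basal and 10 µM groups and P14 at 1 µM, and the log2 ratios at 10 µM were 0.30, -0.26 and 0.01. The fitted change was 0.01 ± 0.13 (95% interval -0.28 to 0.30; adjusted p = 0.980) with the P number.

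**Figure D2:**
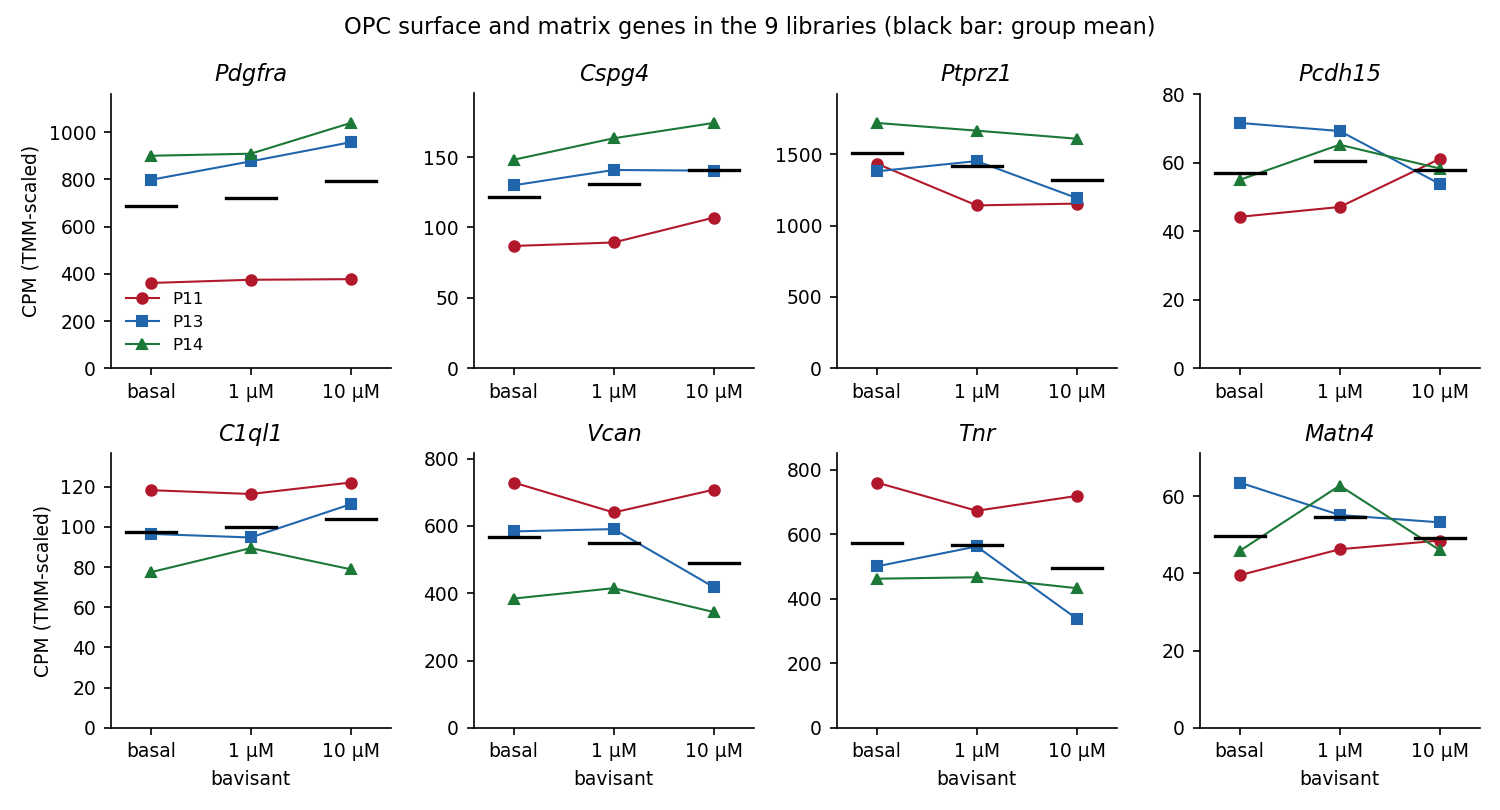
Level of each gene (CPM, axes from 0) in the 9 libraries by bavisant dose, with libraries of the same P number joined and the group mean as a black bar. For Pdgfra and Cspg4 the P11 line lies below those of P13 and P14 at every dose. For C1ql1 and Vcan the P11 line is the highest and the P14 line the lowest at every dose. No gene's groups separate by dose.

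By CPM, 6 of 8 genes had 1 direction in all 3 P numbers at 10 µM against basal, where 44.8% of all tested genes did. The 3 higher were Pdgfra, Cspg4 and C1ql1, and the 3 lower were Ptprz1, Vcan and Tnr. By TPM, C1ql1 was lower at 10 µM in P11 (217 against 225 at basal) and P14 (151 against 154). Cspg4 was lower by TPM in P13 (27.7 against 28.1), while Pdgfra, Ptprz1, Vcan and Tnr kept their direction. The median of the 8 fitted changes was 0.03 with the P number, against -0.01 over all tested genes. The surface proteins Pdgfra, Cspg4 and Ptprz1 were the 3 with an unadjusted p under 0.05, in both directions. With the P number in the fit, 8 of 12 myelin genes and 2 of 12 genes of committed precursors (Rras2 and Sirt2) were called higher at 10 µM, and 0 lower. Where markers of cells outside the oligodendrocyte lineage were called at 10 µM against basal, they were lower. With the P number in the fit, 4 of 14 astrocyte, 4 of 12 neuron, 2 of 12 microglia, 1 of 9 fibroblast, 1 of 7 pericyte and 1 of 6 endothelial markers were called lower and 0 higher, and without it none was called. Their medians were -0.32, -0.20, -0.16, -0.47, -0.47 and -0.54 on the log2 scale, in the same order. The summed astrocyte level was 2077 to 2569 TPM at basal and 1558 to 2210 TPM at 10 µM, and the fibroblast level 99.4 to 870.5 TPM and 71.8 to 669 TPM. Against 1 µM, 7 of 9 fibroblast, 6 of 12 microglia, 2 of 14 astrocyte, 2 of 6 endothelial, 1 of 7 pericyte and 1 of 12 neuron markers were called lower, and 1 neuron marker higher. Their part in the values of the 8 genes was not tested.

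At 1 µM no gene differed from basal beyond the spread. Of the 8 genes, 0 were called with or without the P number, where 0% of all genes were called in both fits. At an unadjusted p under 0.05 edgeR passed 0 of the 8 in both fits, and 81 and 582 of all genes without and with the P number. DESeq2 called 5 of all genes without it and 8 with it, and none of the 8. The fitted changes with the P number ran from -0.10 for Ptprz1 to 0.16 for Matn4, and the widest 95% interval bounds over the 8 genes were -0.29 and 0.45. Pdgfra (0.05, 0.14 and 0.01 in P11, P13 and P14) and Cspg4 (0.04, 0.12 and 0.14) were higher in all 3 P numbers, 2 of 8 genes where 28.0% of all genes had 1 direction. The 1 µM and 10 µM comparisons share their basal libraries. Between 10 and 1 µM, 0 of 8 genes were called without the P number, where 0% of genes were, and 0 of 8 with it, where 4.30% were. At an unadjusted p under 0.05 edgeR passed 0 of the 8 in both fits, and 717 and 3246 of all genes. No gene's 10 and 1 µM libraries were without overlap, where 8.50% of tested genes had none. By CPM, Pdgfra alone had 1 direction in all 3 P numbers (0.01, 0.13 and 0.19), 1 of 8 genes where 42.4% of all genes did. By TPM, Pdgfra was lower at 10 than at 1 µM in P11 (94.5 against 96.1), and Ptprz1 was lower in each P number. Vcan and Tnr had the largest fitted differences, -0.21 and -0.24 (adjusted p = 0.303 and 0.323). DESeq2 called 66 of all genes without the P number and 987 with it, and none of the 8.

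**Figure D3:**
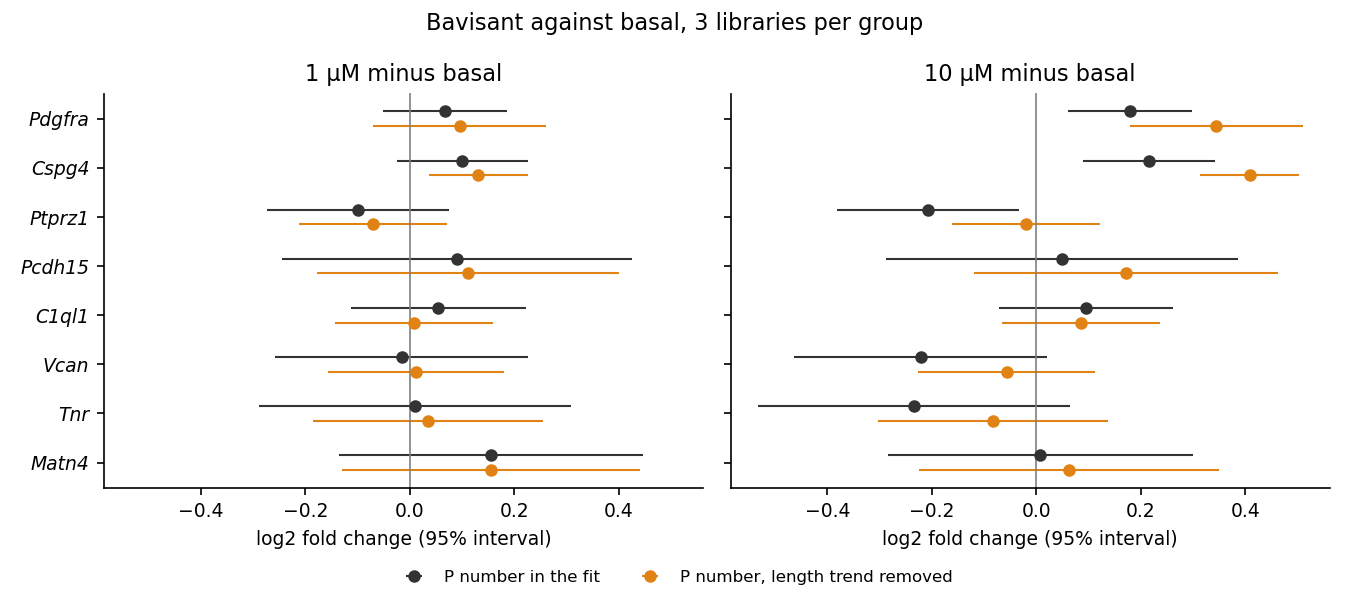
Fitted log2 fold change of each gene at 1 µM (left) and 10 µM bavisant (right) against basal, with 95% intervals, from fits with the P number as a term (dark) and with each library's trend over transcript length removed as well (orange). Pdgfra and Cspg4 lie to the right of 0 at 10 µM in both fits, and move to 0.34 and 0.41 with the length trend removed. The median over all tested genes at 10 µM is 0.0445 in that fit.

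Fold changes at 10 µM also moved with transcript length. With the P number in the fit, the median change was 0.06 in the shortest of 4 equal length classes of tested genes and -0.08 in the longest. With 20 classes it was -0.15 in the longest, and in that class the medians within P11, P13 and P14 were -0.10, -0.30 and -0.05. Most of the 8 genes have long transcripts: relative to the median tested gene, as read from the ratio of counts to TPM, Cspg4 was 4.05 times as long, Ptprz1 3.90, Vcan 3.37, Pdgfra 3.27, Tnr 3.12 and Pcdh15 2.39, against 1.04 for Matn4 and 0.440 for C1ql1. Ptprz1, Vcan and Tnr thus lay near the median of genes of their length, and Pdgfra and Cspg4 lay above it.

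**Figure D4:**
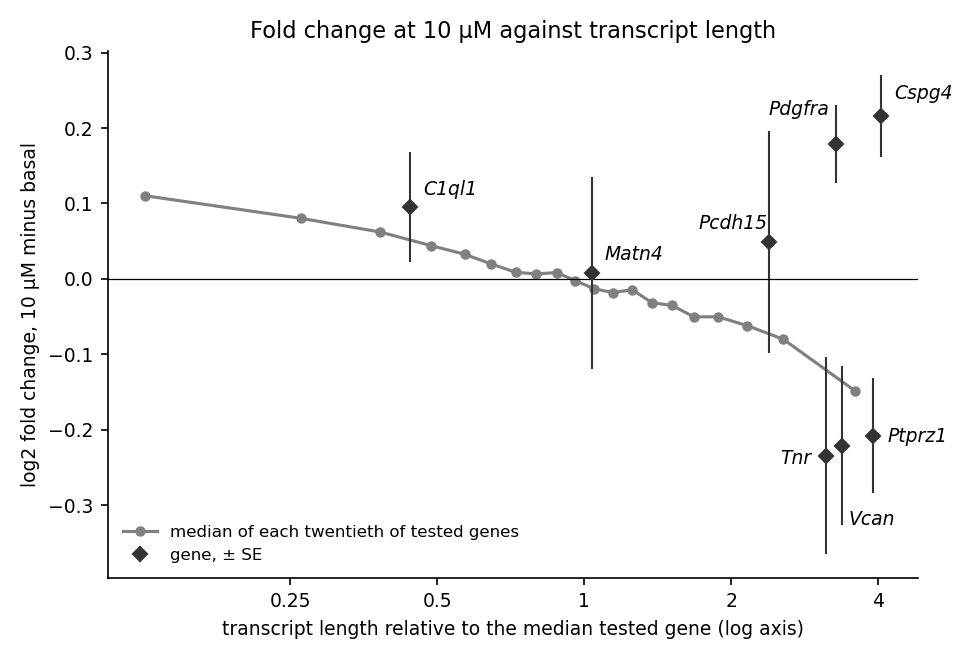
Fitted log2 fold change at 10 µM against basal (P number in the fit, ± SE) of the 8 genes against their transcript length relative to the median tested gene (log axis), with the median of each of 20 equal length classes of all tested genes in grey. The grey line falls to -0.15 at the longest genes, where Pdgfra (0.18) and Cspg4 (0.22) stand above it.

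With each library's trend over transcript length removed and the P number in the fit, a setting chosen after seeing the data, 2 of the 8 genes were called higher at 10 µM, where 4.29% of all genes were called higher. Cspg4 rose by 0.41 ± 0.04 on the log2 scale (95% interval 0.31 to 0.50; adjusted p = 0.00738), which is 1.33-fold. Pdgfra rose by 0.34 ± 0.07 (95% interval 0.18 to 0.51; adjusted p = 0.0335), which is 1.27-fold. The Cspg4 call held in 9 of 9 fits that left out 1 library (0.38 to 0.45; adjusted p 0.00870 to 0.0436). The Pdgfra call held in 2 of 9, those without the 1 µM P13 or the 10 µM P11 library (0.25 to 0.43 over the 9 fits; adjusted p 0.0179 to 0.134). With the P number alone, neither gene was called in any edgeR fit that left out a library. The changes of the long matrix and phosphatase genes shrank to -0.02 for Ptprz1, -0.06 for Vcan and -0.08 for Tnr (adjusted p = 0.864, 0.658 and 0.616). Over all genes this setting turned the balance of calls, from 202 higher and 405 lower to 657 higher and 342 lower. The median change over all tested genes moved as well, from -0.01 to 0.0445 at 10 µM against basal. For 10 against 1 µM it moved from -0.0045 to 0.0589. Values under this setting were thus not centred on 0, and the part of this shift in the changes of the 8 genes was not tested. Against 1 µM the setting called Cspg4 (0.28 ± 0.04, adjusted p = 0.0127) and not Pdgfra (0.25, adjusted p = 0.0645), where 8.92% of all genes were called. The Cspg4 call was lost without any 1 of the 3 libraries at 1 µM (adjusted p up to 0.0609). The part of the length trend in the values of these genes was not tested in any other way.

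All 8 genes had a larger fitted difference between P11 and the other P numbers than at either dose against basal, a count that was not made over all tested genes. With group and P number in the fit, 6 of 8 genes were called between P11 and the mean of P13 and P14, where 50.6% of all tested genes were called. Pdgfra, Cspg4 and Ptprz1 were lower in P11, where 25.4% of genes were called lower, and C1ql1, Vcan and Tnr were higher, where 25.2% were. Pdgfra changed most, from 878 ± 79.7 CPM (SD, n = 3) in P13 and 949.6 ± 77.9 in P14 to 371 ± 8.70 in P11, a log2 difference of -1.29 ± 0.05 (adjusted p = 1.01e-06). Cspg4 was lower in P11 by a log2 difference of -0.66 ± 0.05 (adjusted p = 1.83e-05), with 94.4 ± 10.99 CPM against 137 ± 6.14 in P13 and 162 ± 13.1 in P14. Ptprz1 was lower by -0.27 ± 0.07 (adjusted p = 0.00972), a call lost without the 1 µM P11 library (adjusted p = 0.0692).

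Of the 4 secreted and matrix genes, Vcan, Tnr and C1ql1 ran the other way and Matn4 did not. Vcan had 692 ± 46.5 CPM in P11, 531 ± 97.7 in P13 and 381 ± 35.7 in P14, and was higher in P11 by 0.63 ± 0.09 (adjusted p = 0.000588). Tnr had 717 ± 43.8, 467 ± 116 and 454 ± 18.4 CPM, a log2 difference of 0.65 ± 0.11 (adjusted p = 0.00150). C1ql1 had 119 ± 2.91, 101 ± 9.10 and 81.9 ± 6.55 CPM, a difference of 0.39 ± 0.06 (adjusted p = 0.00113). For these 3 genes, Pdgfra and Cspg4, no P11 library overlapped any P13 or P14 library, 5 of 8 genes where 37.9% of tested genes had no overlap. Pcdh15 (-0.29 ± 0.13, adjusted p = 0.0947) and Matn4 (-0.27 ± 0.11, adjusted p = 0.0706) did not pass, and with the length trend removed Pcdh15 did (-0.32 ± 0.11, adjusted p = 0.0382). That Pcdh15 call held in 2 of 9 fits that left out a library (adjusted p up to 0.213). The ratio of Pdgfra to Vcan on the TPM scale was 0.511 to 0.606 in P11, 1.46 to 2.24 in P13 and 2.20 to 3.05 in P14.

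P14 and P13 differed less, with 4 of 8 genes called, where 12.3% of all genes were. Cspg4 (0.24 ± 0.05, adjusted p = 0.0266) and Ptprz1 (0.31 ± 0.08, adjusted p = 0.0328) were higher in P14, where 4.88% of genes were. C1ql1 (-0.30 ± 0.07, adjusted p = 0.0342) and Vcan (-0.47 ± 0.11, adjusted p = 0.0254) were lower, where 7.38% were. With the length trend removed the C1ql1 call was lost (-0.20 ± 0.07, adjusted p = 0.0940). The same 4 genes had no overlap between P14 and P13 libraries, where 28.5% of tested genes had none. With the length trend kept, these calls leaned on single libraries: 0 of 8 were called without the P13 or P14 basal library or the P14 library at 10 µM, and 1 without the P14 library at 1 µM. With it removed, the Vcan call held in 9 of 9 fits that left out a library (adjusted p 0.00069 to 0.0392). The Cspg4 and Ptprz1 calls then held in 5 of 9 each. By their means, Cspg4 and Ptprz1 were lowest in P11 and highest in P14, and C1ql1 and Vcan ran in the reverse order.

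**Figure D5:**
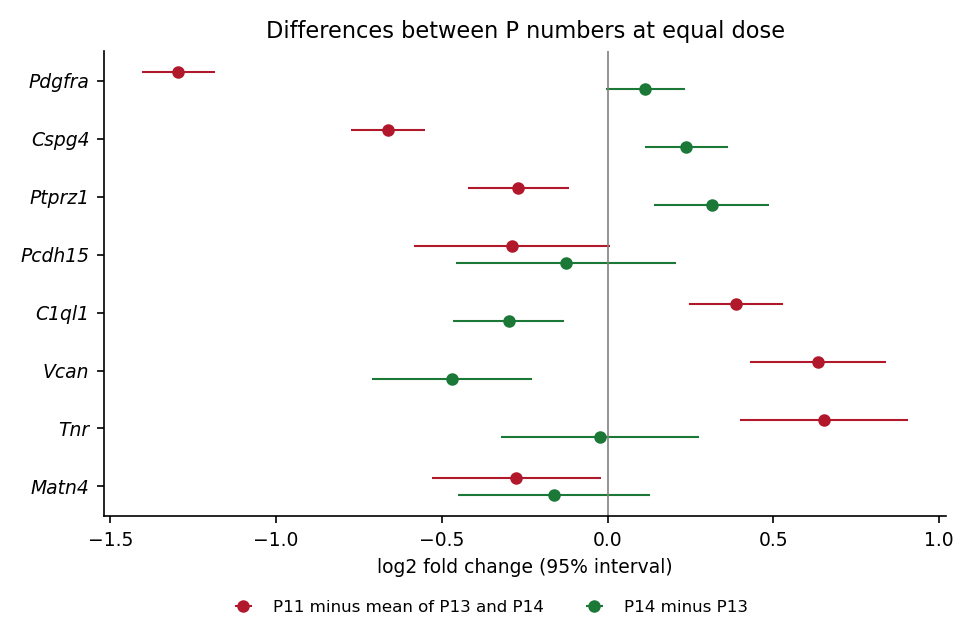
Log2 difference of each gene between P11 and the mean of P13 and P14 (red) and between P14 and P13 (green) at equal dose, with 95% intervals, from the fit of group and P number. Pdgfra stands out at -1.29 for P11, and Vcan, Tnr and C1ql1 lie on the other side of 0.

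Markers of other cells moved with the P number as well. All 9 tested fibroblast and meningeal markers were higher in P11, with a median of 2.12 on the log2 scale, among them Fn1 (2.68 ± 0.12), a fibronectin, and Col1a1 (2.25 ± 0.09), a collagen chain (adjusted p = 1.79e-06 and 1.27e-06), and all 9 were lower in P14 than in P13 (median -1.99). Of 12 myelin genes, 10 were higher and 1 lower in P11, with Mobp at 2.35 ± 0.09. Of 12 proliferation genes, 0 were higher and 9 lower, with a median of -0.83. Of 12 microglia markers 0 were higher and 8 lower (median -0.34), and of 12 tested neuron markers 2 were higher and 8 lower (median -0.64), while Pdgfra, Cspg4 and Ptprz1 were lower. Of 6 tested endothelial markers 4 were higher and 2 lower, and of 7 tested pericyte markers 3 were higher and 1 lower. Astrocyte markers were split in P11, with 5 of 14 higher and 5 lower, and in P14 against P13 8 were higher and 2 lower. No marker of the fibroblast list in the table was at 0 in all 9 libraries. Fibroblasts are known to make Pdgfra and versican, and pericytes NG2. The part of these cells in the values of the 8 genes was not tested.

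The 27 tested genes of the wider precursor programme included 17 that were lower and 3 that were higher in P11, with a median of -0.47 against -0.0014 over all genes. The transcripts of the retinaldehyde-binding protein Rlbp1 (-1.83 ± 0.05), the Notch ligand Dll3 (-1.76 ± 0.10) and the proteoglycan Cspg5 (-0.99 ± 0.08) were lower, as Pdgfra was, at adjusted p of 4.54e-07, 4.29e-06 and 3.80e-05. Susd5 (1.06 ± 0.24) and Snx22 (1.20 ± 0.14) were higher. Susd5 had very few reads, at 0.49 to 0.64 CPM in P11 and 0.20 to 0.27 CPM in P14. At 10 µM, 0 of the 27 were higher and 1 was lower with the P number in the fit, Ednrb, the endothelin B receptor (-0.49 ± 0.10, adjusted p = 0.0382), and that call held in 1 of 9 fits that left out a library, the one without the 10 µM P11 library. The median of the 27 was -0.06 at 10 µM.

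Among PDGF ligands and receptors, 0 of 7 were called at 10 µM, and Pdgfa, the main ligand of the receptor, stood at 0.18 ± 0.08 (adjusted p = 0.258). In P11 the ligand Pdgfa (0.47 ± 0.07, adjusted p = 0.000861) and the mural cell receptor Pdgfrb (1.07 ± 0.10, adjusted p = 7.40e-05) were higher while Pdgfra was lower, with 4 of 7 higher and 1 lower in all. Of 16 feedback genes induced by ERK signalling below receptor tyrosine kinases, 0 were called at either dose. In P11, 5 were higher and 7 lower, the ETS factors Etv4 (-0.97 ± 0.10) and Etv5 (-0.55 ± 0.07) among the lower and the immediate early gene Egr1 (2.33 ± 0.12) among the higher.

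Binding partners of the 8 proteins were called lower at 10 µM in 2 of 12 cases with the P number in the fit and in none without it. Lgals3, which encodes galectin-3, a lectin that binds NG2, fell by 0.81 ± 0.09 on the log2 scale (adjusted p = 0.0114), a call lost without the basal P11 or the basal P13 library (adjusted p up to 0.0746). With the length trend removed as well, the Lgals3 call held in 9 of 9 such fits (adjusted p 0.00781 to 0.0436). Grip1, a PDZ scaffold that binds NG2, fell by 0.33 ± 0.07 (adjusted p = 0.0440), and its call held in none of the 9 fits that left out a library. Microglia also make galectin-3, and 2 of 12 microglia markers, Itgam and Cd68, were called lower at 10 µM, with summed levels of 1020 to 1451 TPM at basal and 967 to 1128 TPM at 10 µM. Their part in the Lgals3 value was not tested. Pleiotrophin (Ptn), the ligand of Ptprz1, was lower in P11 by -0.46 ± 0.08 (adjusted p = 0.00187), as Ptprz1 was.

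Few genes of the matrix into which versican and tenascin-R assemble were called at 10 µM. Of 15 tested genes for hyaluronan synthases and receptors, link proteins, lecticans, fibulins and tenascins, a list that includes Vcan and Tnr themselves, 0 were higher and 1 was lower, the hyaluronan synthase Has3 (-0.75 ± 0.15, adjusted p = 0.0386), with a median of -0.25 against -0.01 over all genes. Has3 had a low level, with a mean of 0.672 TPM at basal and 0.387 TPM at 10 µM. The lecticans brevican (Bcan, -0.08 ± 0.07, adjusted p = 0.511) and neurocan (Ncan, -0.25 ± 0.06, adjusted p = 0.0673) and tenascin-C (Tnc, -0.28 ± 0.09, adjusted p = 0.128) were not called. In P11, Ncan was lower by -0.62 ± 0.06 (adjusted p = 5.71e-05) while Vcan was higher, and in P14 it was higher than in P13 by 0.74 ± 0.06 (adjusted p = 0.000466) while Vcan was lower. The 2 lecticans thus differed in opposite directions in both contrasts. Of 20 tested enzymes that build chondroitin sulfate, 1 was called at 10 µM, the epimerase Dse (-0.31 ± 0.07, adjusted p = 0.0410), and in P11 9 were higher, the sulfotransferase Chst15 among them (1.24 ± 0.09, adjusted p = 1.66e-05), and 1 was lower. The calls of Has3 and Dse held in 0 and 2 of 9 fits that left out a library.

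Among 7 genes for metalloproteases that cut lecticans and their inhibitor, 1 was higher and 1 lower at 10 µM with the P number in the fit. Adamts4, an aggrecanase that is also made by oligodendrocytes, rose by 0.24 ± 0.04 on the log2 scale (adjusted p = 0.0284), a call that held in 2 of 9 fits that left out a library, and Adamts15 fell by 0.61 ± 0.14 (adjusted p = 0.0486), which held in 1 of 9. Of the other matrilins, Matn1 and Matn2 were higher in P11 (2.17 ± 0.44 and 1.87 ± 0.08, adjusted p = 0.00382 and 1.32e-06), while Matn4 was not called. Matn1 had very few reads, at 0.51 to 0.74 CPM in P11 and 0 to 0.12 CPM in P14. No matrilin was called at 10 µM. Of 12 myelin genes, 8 were higher and 0 lower at 10 µM with the P number in the fit, with a median of 0.34. Mbp, the myelin basic protein, rose by 0.54 ± 0.07 (adjusted p = 0.0125), a call lost without the basal P11 or P13 library. With the length trend removed as well, the Mbp call held in 9 of 9 fits that left out a library (adjusted p 0.00909 to 0.0491). The difference between the 2 lists was not tested.

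For each of the 8 genes, the genes whose log2 CPM moved most alike over the 9 libraries, after each P number's mean was subtracted, were named by Pearson's r among 9314 genes. These correlations describe 9 libraries that share P numbers and doses and differ in depth, and each is the highest of many, so they carry no p. The closest were Mrrf (0.979) to Pdgfra, Sdc3 (0.978) to Cspg4, Cecr2 (0.977) to Ptprz1, Ttll7 (0.994) to Pcdh15, Oser1 (0.946) to C1ql1, Dst (0.994) to Vcan, Zfp236 (0.996) to Tnr and Lrfn1 (0.974) to Matn4. The 3 genes closest to Vcan (Dst, Smg1 and Herc1) and to Tnr (Zfp236, Glg1 and Med13l) were all long, at 2.997 to 12.5 times the median tested gene.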

How the data were processed

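RNA was measured in 9 libraries, grouped by the treatment label. The lower dose is 1 µM in that label and in the design text, used here, and 1 mM in the protocol texts. The tools named by the submitters' processing notes were DRAGEN, FastQC, Picard and Trimmomatic, on build rn6. Aligner settings, counter, strand setting and annotation are not given in the sources used. The authors deposited estimated counts per gene (92.4% to 93.0% whole numbers, rounded here) and a table of TPM values. Of 32623 IDs, 399 had no name.

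Genes were tested with edgeR 4.0.16 in R 4.3.3 (quasi-likelihood F test, TMM, filterByExpr with minimum 10 and total 15) and Benjamini-Hochberg adjustment at 0.05. CPM values are TMM-scaled. The P number met the pairing check, since all 9 same-number pairs correlated (0.319 to 0.772, others -0.708 to 0.193), and is given as a block. Relative length came from counts over TPM, and removal of each library's loess trend (span 0.5) was chosen after seeing the data. DESeq2 1.42.0 and limma 3.58.1 were alternatives. All library pairs within a group differed beyond sampling noise, with a chi-square of 23.8 to 117 per degree.

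Besides the 8 genes and up to 4 called genes per list with the smallest p, a fixed core of list genes and the 3 most alike genes per member were named. A few named list genes fall outside that rule and were chosen after their values were seen. The 18 lists, with that of the 8 genes among them, were chosen with earlier results of these data known. The test steps were also run on counts simulated from the fit with the P number, with no length trend between doses. That run could not check the removal of the length trend or the choice of the P number as a block.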

Additional observations from a re-analysis of the deposited data

How the results depend on the processing

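The alternatives were other scalings, DESeq2, limma on log2 TPM, other filters, the P number as a block alone or combined with these, the block without the P11 libraries, and each library left out. Apart from fits that left out a library, the values of the 8 genes kept direction and side of the threshold in 472 cases, passed the threshold only under the alternative in 11, fell short of it in 5 and changed sign in 48. For the other named genes these were 396, 108, 1 and 2. Without the P number, 0 genes were called in each dose comparison by edgeR, against 64 at 10 µM, 5 at 1 µM and 66 for 10 against 1 µM by DESeq2. With the replicate block, which pairs libraries by P number, edgeR called 607 genes at 10 µM and 659 for 10 against 1 µM, and no member. With the block, the same 2 counts were 609 and 656 with DESeq2 size factors, 834 and 926 with library totals, 964 and 987 with DESeq2, 502 and 453 with limma on log2(TPM + 1), 506 and 433 with a pseudocount of 0.1, 736 and 726 for genes with a mean of at least 100 reads, 10 and 110 without the P11 libraries, and 999 and 1366 with the length trend removed. DESeq2 with the block called 8 genes at 1 µM. Of the 8 members, 2 were called at 10 µM by DESeq2 with the block and 2 with the length trend removed, which also called 1 for 10 against 1 µM. Limma called 2 members between P14 and P13 with both pseudocounts, against 4. The common dispersion was 0.0675 without the P number and 0.00696 with it. The cause was not tested.

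Values near 0 changed sign. At 10 µM against basal, Matn4 was 0.0078 with the block and with the block and size factors, 0.0104 with the block in DESeq2, 0.00048 with the block at 100 reads and 0.063 with the length trend removed. Pcdh15 was -0.035 with library totals, -0.013 and -0.012 with limma at a pseudocount of 1 and 0.1, and -0.15 with the block without P11. C1ql1 was -0.017 with limma, and Bcan 0.029 with the block without P11 and 0.0018 with the length trend removed. At 1 µM, Tnr was 0.0096 with the block, 0.0084 with size factors, 0.019 with library totals, 0.0086 in DESeq2, 0.0101 at 100 reads, 0.10 without P11 and 0.034 with the length trend removed, all with the block, and 0.019 or 0.020 with limma. Vcan was 0.0055 or 0.0057 with limma, 0.069 without P11 and 0.012 with the length trend removed, and Ptprz1 was 0.020 without P11. For 10 against 1 µM, C1ql1 was -0.0012 with library totals, -0.017 with these and the block and -0.043 with limma, and the length trend removed gave 0.050 for Ptprz1 and 0.059 for Pcdh15. Tnr was 0.040 with limma between P14 and P13.

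Leaving out 1 library in turn, over the fits without the block, with it and with the length trend removed, 0 to 939 genes were called at 10 µM, 0 to 2 at 1 µM and 0 to 1327 for 10 against 1 µM. With the block alone the counts were 0 to 581 at 10 µM, lowest without the basal P11, P13 or P14 or the 10 µM P14 library (0, 1, 57 and 64). For 10 against 1 µM they were 0 to 651, lowest without the 10 µM P14 or any 1 µM library (0, 0, 31 and 0). Between P14 and P13, 555 to 2092 genes were called. Members called were 0 to 2 at 10 µM and for 10 against 1 µM, and 0 to 4 between P14 and P13. The log2 values of members and lectican genes that changed sign ran, at 10 µM, from -0.10 to 0.54 for Pdgfra, -0.36 to 0.058 for Ptprz1, -0.044 to 0.26 for C1ql1, -0.57 to 0.019 for Vcan, -0.57 to 0.050 for Tnr, -0.17 to 0.32 for Pcdh15, -0.15 to 0.23 for Matn4, -1.58 to 0.27 for Adamts15, -0.16 to 0.093 for Bcan, -0.61 to 0.092 for Ncan and -0.41 to 0.030 for Tnc. At 1 µM they ran from -0.24 to 0.38 for Pdgfra, -0.084 to 0.33 for Cspg4, -0.22 to 0.047 for Ptprz1, -0.10 to 0.20 for C1ql1, -0.26 to 0.18 for Vcan, -0.16 to 0.24 for Tnr, -0.064 to 0.29 for Pcdh15 and -0.0096 to 0.36 for Matn4. For 10 against 1 µM they ran from -0.17 to 0.47 for Pdgfra, -0.11 to 0.32 for Cspg4, -0.27 to 0.094 for Ptprz1, -0.075 to 0.22 for C1ql1, -0.53 to 0.038 for Vcan, -0.56 to 0.022 for Tnr, -0.26 to 0.20 for Pcdh15 and -0.28 to 0.072 for Matn4. Between P14 and P13 they ran from -0.21 to 0.15 for Tnr, -0.30 to 0.028 for Pcdh15 and -0.32 to 0.031 for Matn4.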
